A study of Mus musculus with 65 samples.

Results

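The CTCF peak list of mouse megakaryocyte progenitors, titled CFUMk, was compared with the 2 CTCF peak lists of the more mature cells titled iMk. These 3 libraries were 3 of the 65 in the series, and were chosen by their titles. Peaks of the 3 lists that shared at least 1 bp were merged into 37203 sites. A site with a peak in the CFUMk list and in neither iMk list was called CFUMk-only, a site with a peak in both iMk lists and none in the CFUMk list iMk-only, and a site with a peak in each list shared. The classes were built once from all peaks and once from the 19000 strongest peaks of each list.

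Megakaryocytes are the large cells of the bone marrow that shed platelets. Their committed progenitor still divides and carries the receptor tyrosine kinase cKit, which is lost as the cell matures, becomes polyploid and fills its granules. CTCF is a zinc finger protein that binds a long DNA motif at insulators and at the anchors of chromatin loops, where it halts cohesin, and most of its sites are occupied in many cell types. The sites that do vary between cell types are the ones this comparison was made to find.

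The series tested how the length of sheared chromatin affects ChIP-seq, mainly in a mouse erythroid cell line, and added CTCF libraries from sorted bone marrow cells. Both megakaryocyte populations came from C57BL/6 males of 5 to 8 weeks and were negative for Sca1 and for the lineage markers CD4, CD8, CD11b, CD45R, IL7Ra, Ly6g and Ter119. Both were CD41+ and CD61+. CFUMk cells were cKit+ and iMk cells cKit-. The labels name no transgene or treatment of the mice. Cells were fixed, frozen and pooled over many mice and sorts, so a library is a pool of animals and not 1 mouse. Peaks hold no RNA level, so the labels could not be checked against the expression of marker genes. Sheared chromatin was 218 bp long in the CFUMk library and 257 bp in both iMk libraries, and all 3 passed the study's quality assessment. There was 1 CFUMk library, so no test between CFUMk and iMk over samples could be made, and a difference between the cell types cannot be told apart from a difference between these libraries. In pooled cells, fewer cells with a bound site and weaker binding in each cell also cannot be told apart. Of the other primary cells, 8 CTCF libraries served for comparison. The progenitor libraries were LSK (cKit+ Sca1+ cells, which hold the stem cells; 2 libraries), CMP, GMP and MEP. The erythroid libraries were CFUE (Ter119+ CD44+ with high forward scatter) and ERY (low forward scatter; 2 libraries). CMP and GMP were assessed as Low pass. In addition, 14 CTCF libraries of G1E-ER4+E2 cells that passed were used, an erythroid line without GATA1 that matures when estradiol activates an introduced GATA1 fusion.

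The DNA at the sites named most often in the results is printed here, so that the capital letters can be set beside the binding values. Each line holds the best match to a 19-bp CTCF motif inside the site, in capitals, with 10 bases on either side in lower case. The motif was learned from the strongest peaks of 1 cell line library and had the consensus NNCCANNAGNGGGCNNNNN. Coordinates are those of the capitals in GRCm38 (mm10), and the sequence is that of the strand given. The first group holds CFUMk-only sites at Mecom, Kit and Lmo2, genes of stem cells and progenitors, and at promoters with strong CFUMk-only peaks.
Mecom, chr3:30508493-30508511, minus strand: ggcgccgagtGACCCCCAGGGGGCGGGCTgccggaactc
Mecom intron, chr3:30515227-30515245, minus strand: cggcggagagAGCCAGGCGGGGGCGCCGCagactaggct
Kit promoter, chr5:75575757-75575775, plus strand: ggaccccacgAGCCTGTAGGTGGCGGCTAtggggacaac
Lmo2 promoter, chr2:103969443-103969461, plus strand: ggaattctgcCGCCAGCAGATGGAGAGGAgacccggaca
Hoxd3os1 promoter in the Hoxd cluster, chr2:74715919-74715937, plus strand: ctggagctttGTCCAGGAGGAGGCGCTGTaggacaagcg
Slco5a1 promoter, chr1:12990356-12990374, plus strand: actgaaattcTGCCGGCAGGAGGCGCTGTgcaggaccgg
Scnn1g promoter, chr7:121734295-121734313, plus strand: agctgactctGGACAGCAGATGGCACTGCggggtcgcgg
Lama1 promoter, chr17:67697119-67697137, minus strand: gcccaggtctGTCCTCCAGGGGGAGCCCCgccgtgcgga

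The second group holds sites with a peak in both iMk lists and no peak in the CFUMk list. The sites beside Pirb and Pira2, neighbouring genes of one receptor family, hold the same letters.
Wwox promoter, chr8:114440059-114440077, plus strand: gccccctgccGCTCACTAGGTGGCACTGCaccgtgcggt
Near Pde6h, chr6:136999906-136999924, minus strand: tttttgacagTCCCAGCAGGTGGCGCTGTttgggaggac
Near Pirb, chr7:3745804-3745822, minus strand: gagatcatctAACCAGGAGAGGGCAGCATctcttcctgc
Near Pira2, chr7:3850946-3850964, minus strand: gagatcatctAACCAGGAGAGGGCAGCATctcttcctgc

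The third group holds shared sites. Those at Itga2b, Cebpa and Prdm8 ranked lower in both iMk lists than in the CFUMk list, those at Itgb3 and Cdk6 ranked higher, and that in Vwf ranked high in each list.
Near Itga2b, chr11:102447721-102447739, minus strand: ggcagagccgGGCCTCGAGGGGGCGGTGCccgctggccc
Cebpa promoter, chr7:35119235-35119253, plus strand: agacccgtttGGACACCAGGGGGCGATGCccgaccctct
Prdm8 promoter, chr5:98167662-98167680, plus strand: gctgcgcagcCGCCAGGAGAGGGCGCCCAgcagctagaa
Itgb3 intron, chr11:104648723-104648741, plus strand: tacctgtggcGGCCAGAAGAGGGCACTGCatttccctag
Cdk6 intron, chr5:3516932-3516950, minus strand: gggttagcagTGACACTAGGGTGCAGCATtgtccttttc
Vwf exon, chr6:125604634-125604652, minus strand: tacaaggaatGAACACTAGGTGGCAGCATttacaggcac

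Nearly every CTCF site of the iMk cells was already a peak in CFUMk cells. Of the merged sites, 17309 (46.5%) were shared, 14027 (37.7%) were CFUMk-only and 22 (0.0591%) were iMk-only. A CFUMk peak lay at 99.5% of the sites of iMk replicate 1 and at 96.7% of those of iMk replicate 2. In the other direction, 52.9% of CFUMk sites were called in iMk replicate 1 and 56.1% in replicate 2. The iMk lists held 89.5% (replicate 1 in 2) and 82.0% (replicate 2 in 1) of each other's sites.

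The lists differed in length and in strength. The CFUMk list held 36481 peaks, and the iMk lists held 19612 and 21494. The deposited −log10 p of a peak, its strength over background as scored by the peak caller, had a median of 24.6 in the CFUMk list, 16.6 in iMk replicate 1 and 14.8 in iMk replicate 2. Median fold enrichment was 21.4, 14.4 and 18.2, and median peak width 812, 698 and 629 bp. The peak lists carry no read counts, so the depth behind these values is unknown.

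CFUMk-only sites belonged to the weaker part of the CFUMk list. The strongest of them stood at rank 5226, and among the CFUMk peaks of ranks 18001 to 20000 a share of 32.65% had no peak in either iMk list. In the weakest bin of the list that share was 95.2%. Rank alone moved with presence in the same way between the iMk libraries. At ranks 16001 to 18000, iMk replicate 1 called 63.7% of CFUMk peaks and 60.7% of the peaks of iMk replicate 2, and iMk replicate 2 called 67.55% of CFUMk peaks and 69.8% of the peaks of iMk replicate 1.

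**Figure D1:**
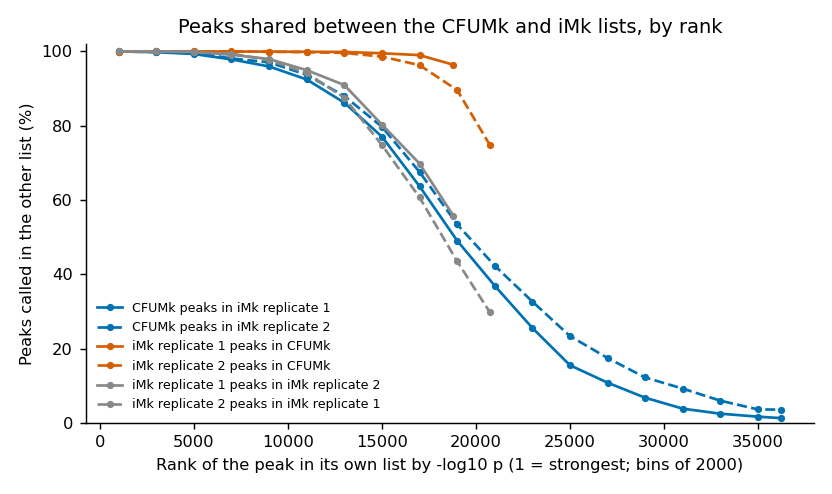
The x axis is the rank of a peak in its own list by −log10 p, in bins of 2000 from the strongest, and the y axis the percentage of the bin called in another list, with 1 line for each ordered pair of the CFUMk and iMk lists. CFUMk peaks and iMk peaks alike are lost from an iMk list as rank falls (49.05% of CFUMk ranks 18001 to 20000 were in iMk replicate 1), while the lines of iMk peaks in the CFUMk list stay highest.

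At equal list length the CFUMk list differed from an iMk list about as much as the iMk lists differed from each other. With the 19000 strongest peaks of each list, the CFUMk list shared 87.4% of its sites with iMk replicate 1 and 85.9% with replicate 2, and the iMk lists shared 86.7%. With the 6629 strongest, the length of the shortest primary list, the shares were 77.0%, 76.4% and 77.7%. The 19000 strongest peaks merged into 22739 sites, of which 15201 (66.8%) were shared, 1524 (6.7%) were CFUMk-only and 1061 (4.67%) were iMk-only. The last CFUMk peak inside this limit and the first outside both had a −log10 p of 22.9. For the iMk lists the limit lay at 5.38 and 6.22, close to the lowest values those lists hold.

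Peaks below the limit were also looked up. Of the 1524 CFUMk-only sites, 400 had a weaker peak in at least 1 complete iMk list and 1124 had none. Of the 1061 iMk-only sites, 1046 had a weaker CFUMk peak and 15 had none. The iMk lists reach little beyond 19000 peaks and the CFUMk list far beyond. These counts therefore cannot tell a difference between the classes from the difference in list length.

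CFUMk-only sites of the equal lists were mostly sites of the other progenitors and seldom of erythroid cells. Among the 1524 sites of the equal lists, 1356 (89.0%) had a peak in at least 1 progenitor library and in no erythroid library, against 73.4% of iMk-only and 40.6% of shared sites. A site was called on average in 60.7 ± 20.2% (SD, n = 5) of cases in a progenitor library and 3.22 ± 1.80% (SD, n = 3) in an erythroid library. For iMk-only sites the values were 42.7 ± 21.03% and 8.07 ± 1.89%, and for shared sites 87.7 ± 8.49% and 41.9 ± 4.62%. No other primary library called 3.15% of CFUMk-only, 9.33% of iMk-only and 0.230% of shared sites. Over all 14027 CFUMk-only sites, which include the weakest peaks of the long list, 42.9% were called in no other primary library and 54.1% in a progenitor and no erythroid library, against 59.1% of the 22 iMk-only sites. Their mean share called was 21.3 ± 13.2% (SD, n = 5) in progenitor and 1.16 ± 0.707% (SD, n = 3) in erythroid libraries.

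Each other library was then asked which of the classes it held more of. Of the CFUMk-only and iMk-only sites it called in the equal lists, the share that was CFUMk-only was 71.4% and 64.9% in LSK, 70.6% in CMP, 62.9% in GMP and 71.6% in MEP. It was 43.2% in CFUE and 31.0% and 30.1% in ERY. The groups did not overlap. The mean was 68.3 ± 4.07% (SD, n = 5) in progenitor and 34.8 ± 7.35% (SD, n = 3) in erythroid libraries, a difference of 33.5 percentage points (two-sided exact permutation test, p = 0.0357, the smallest this design allows, and 0.0536 after Benjamini-Hochberg adjustment over 3 tests). The groups stayed in this order without either iMk library, but the difference was smaller, at 17.2 points without iMk replicate 1 and 20.1 without replicate 2. With each other list also held to its 6629 strongest peaks, the means were 85.7 ± 6.87% and 34.4 ± 8.94%, again without overlap (exact permutation p = 0.0357, adjusted 0.0714 over 2 tests). From all peaks the means were 99.8% and 98.2% (exact permutation p = 0.0357, adjusted 0.0357), a difference of 1.57 points which rests on few iMk-only sites and was 6.27 points without iMk replicate 1. With the other lists held to 6629 peaks this difference was 0.635 points and no longer passed the test (exact permutation p = 0.464). The LSK and ERY pairs are separate samples by their labels, but pools of mice, so these p-values measure the spread between 8 pooled libraries of 6 cell types.

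Whether a library called more of the CFUMk-only or of the iMk-only sites depended on which peaks were used. With all peaks, CFUMk-only sites were called less often than iMk-only sites in 8 of 8 other primary libraries, by a mean of −10.1 points (SD 6.72; exact sign-flip permutation test, p = 0.00781, adjusted 0.0117). The rule asked for a peak in 2 lists at iMk-only sites but in 1 list at CFUMk-only sites, so the classes were not chosen alike. Without iMk replicate 1 or 2, when far more sites counted as iMk-only, the mean was 9.97 and 5.21 points. With the equal lists they were called more often in all 5 progenitor and less often in all 3 erythroid libraries, with a mean of 9.48 points (SD 12.5, exact sign-flip permutation p = 0.0703). In the erythroid cell line CFUMk-only sites were called less often in 13 of 14 libraries with all peaks (mean −9.76 points, SD 5.21, exact sign-flip permutation p = 0.000244, adjusted 0.000732), and the mean turned to 8.10 and 2.42 points without iMk replicate 1 or 2. With the equal lists this held for 14 of 14 libraries (mean −7.41 points, SD 4.19, exact sign-flip permutation p = 0.000122, the smallest this design allows, adjusted 0.000366). All 14 are libraries of 1 cell line, so these p-values measure the spread between its libraries and not between cell types.

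**Figure D2:**
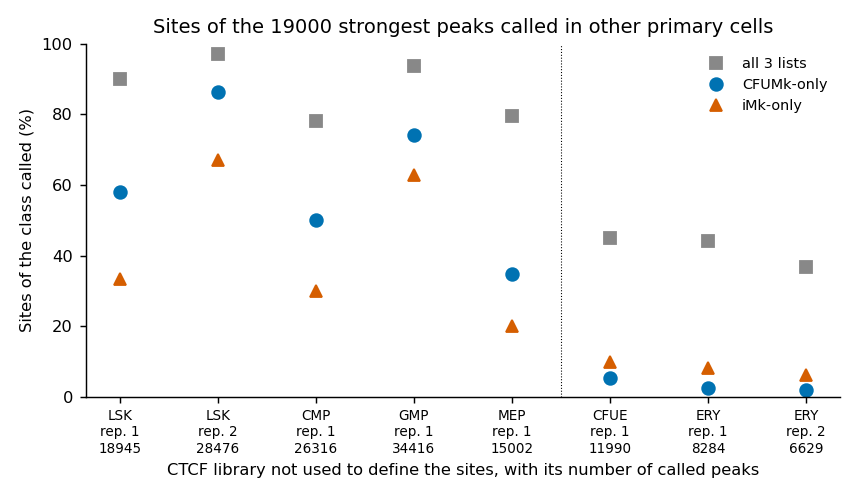
For each of the 8 other primary CTCF libraries, with its number of peaks, points give the percentage of CFUMk-only, iMk-only and shared ("all 3 lists") sites of the equal lists that the library called. CFUMk-only sites lie above iMk-only sites in the 5 progenitor libraries, left of the dotted line, and below them in the 3 erythroid libraries.

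Erythroid lists were the shortest, with 11990 peaks in CFUE and 8284 and 6629 in ERY, against 15002 (MEP) to 34416 (GMP) in the progenitors. CFUMk-only sites were also set against shared sites of the same CFUMk rank, a comparison chosen after the values above were seen and given without a test. The match leaves the other lists at unequal length, and shared sites were also chosen by a peak in both iMk lists. It therefore cannot tell the length of a list from its cell type, and the part of list length in the ratios was not tested. At CFUMk ranks 5001 to 10000 there were 32 CFUMk-only and 4795 shared sites. LSK replicate 2 called 100% and 99.3% of them, LSK replicate 1 87.5% and 96.1%, and MEP 65.6% and 87.2%. CFUE called 6.25% and 42.5%, ERY replicate 1 3.13% and 41.3%, and ERY replicate 2 6.25% and 33.0%. The ratio of the CFUMk-only to the shared share was 0.753 to 1.05 over the progenitor libraries and 0.0756 to 0.190 over the erythroid libraries.

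The same gap stood at lower ranks. Over ranks 10001 to 15000 (247 CFUMk-only sites) the ratio was 0.769 to 1.04 in progenitor and 0.0724 to 0.222 in erythroid libraries. Over ranks 15001 to 19000 (845 sites) it was 0.727 to 1.02 and 0.0901 to 0.318. LSK replicate 1, with 18945 peaks, called 77.3% of the CFUMk-only sites of ranks 10001 to 15000. Chromatin length was 217 to 283 bp in progenitor and 222 to 276 bp in erythroid libraries. Its part in these ratios was not tested. CFUMk-only sites of ranks 5001 to 10000 were also more often without a peak in any of the 14 cell line libraries (46.9% against 10.0% of shared sites).

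**Figure D3:**
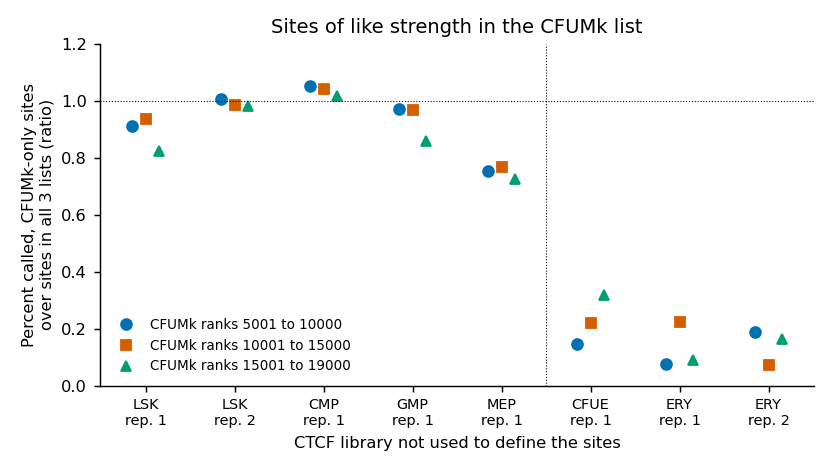
For 3 ranges of CFUMk rank, points give the share of CFUMk-only sites that a library called divided by the share of shared ("all 3 lists") sites it called, with progenitor libraries left of the vertical line. Progenitor ratios lie between 0.727 and 1.05 and erythroid ratios between 0.0724 and 0.318.

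Of the 10 strongest CFUMk-only sites, 5 were within 1 kb of a transcription start, and all 10 were called in 4 or 5 progenitor libraries and in no erythroid library. The first lay within Hoxd3 and Hoxd4, homeobox genes of body patterning, at the start of their antisense transcript Hoxd3os1 (chr2:74715462-74716577). Its −log10 p was 75.1 in CFUMk, 15.2 and 38.6 in LSK, 17.97 in CMP, 10.8 in GMP and 22.01 in MEP. It was called in neither iMk list, and in 13 of the 14 cell line libraries.

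Further promoter sites belonged to Slco5a1, an organic anion transporter family member (67.0 in CFUMk), Lama1, a laminin chain of basement membranes (64.0), and Scnn1g, a subunit of the epithelial sodium channel (63.8). The Lama1 site had its highest value outside CFUMk in GMP, at 47.5. The Slco5a1 and Lama1 sites had no peak in any cell line library, and the Scnn1g site had one in 3 of 14. Other sites of the 10 lay in an exon of Eya4, a transcriptional coactivator (69.2), and nearest to Ctsll3 (67.0), Kif20b (66.4), Sun5 (63.4) and 1810046K07Rik (61.3). Among all CFUMk-only sites of ranks 5001 to 10000, 31.25% (10 of 32, 95% Wilson interval 17.95 to 48.57%) were promoter sites, against 16.2% of shared sites.

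Among stem cell and progenitor genes, Mecom had the most CFUMk-only sites. It encodes a zinc finger transcription factor needed by blood stem cells, and spans 596.7 kb of chromosome 3. CFUMk cells had 10 CTCF peaks within the gene or 10 kb of it, each of them CFUMk-only, and both iMk lists had none. Of the 10, 3 were among the 19000 strongest CFUMk peaks. The others had a −log10 p of 5.89 to 9.16, at ranks where 83.3% to 95.15% of all CFUMk peaks lacked a peak in either iMk list. LSK had 3 and 5 peaks, CMP 4, GMP 5, MEP 1, and CFUE and ERY none. Of 21938 protein-coding genes, 12 had 10 or more CFUMk-only sites and 1 of these, Mecom, had no iMk peak. This count was made after the Mecom values were seen. Prickle2, which like Mecom had 3 CFUMk-only sites of rank 19000 or better, also had no iMk peak.

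The strongest Mecom site (chr3:30507882-30509166) lay at an internal transcription start, 39.5 kb inside the gene. Its −log10 p was 55.5 in CFUMk, 6.19 and 30.7 in LSK, 22.4 in CMP, 59.9 in GMP and 6.36 in MEP. A second site 32.8 kb inside the gene had 27.4 in CFUMk, 12.6 and 38.3 in LSK, 13.6 in CMP and 17.9 in GMP. Another, deep in the gene (chr3:30014959-30015877), had 31.7 in CFUMk, 8.33 and 10.2 in LSK, 8.32 in CMP and 9.65 in GMP. Mecom binding was thus seen in CFUMk, LSK, CMP and GMP at each of these sites, and in none of the iMk or erythroid libraries.

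**Figure D4:**
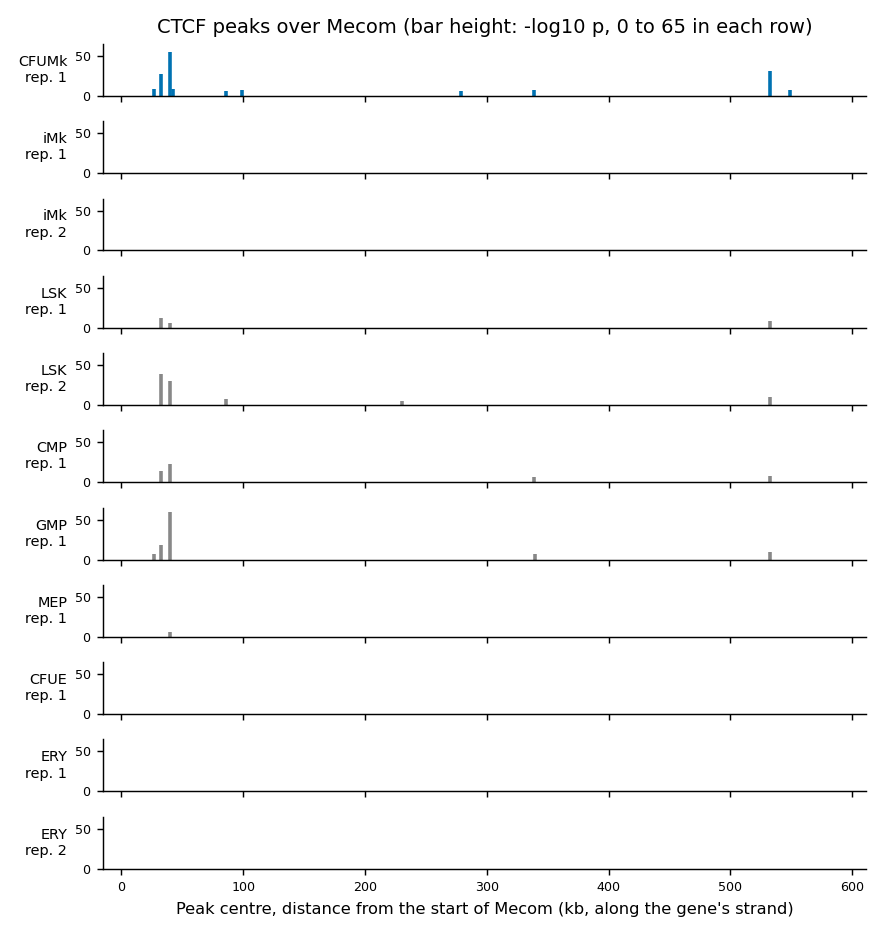
Peaks of the 11 primary CTCF libraries across Mecom, 1 panel for each library, by the distance of the peak centre from the start of the gene in kb (x axis), with the height of a bar giving its −log10 p on a linear axis from 0. CFUMk has 10 peaks, LSK, CMP, GMP and MEP have 1 to 5 each, and iMk, CFUE and ERY have none.

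Kit, whose product was the sort marker that separated the populations, had 1 site, in its promoter (chr5:75575331-75576258). The −log10 p was 21.7 in CFUMk, 8.17 and 15.0 in LSK, 22.2 in CMP, 18.7 in GMP and 5.16 in MEP, and neither iMk nor any erythroid library had a peak. It ranked 19560 in the CFUMk list, just outside the 19000 strongest. Of all CFUMk peaks of ranks 18001 to 20000, 32.65% had no peak in either iMk list. A promoter site of Lmo2, an adaptor of the TAL1 complex, had 27.1 in CFUMk, 7.83 in LSK replicate 2 and 12.7 in GMP and was called in no other primary library. Another Lmo2 site was shared by all 11 primary libraries (90.1 in CFUMk, 35.0 and 27.3 in iMk). At Gata2, a factor of stem and early megakaryocytic cells, the peak at the start of the gene was called in CFUMk alone (11.6), while a site further upstream was shared (124.4 in CFUMk, 41.5 and 31.0 in iMk). In the rank bin of the former, 76.7% of all CFUMk peaks lacked a peak in either iMk list.

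As a list, stem and progenitor genes had a larger share of CFUMk-only sites than sites at large. Without Mecom it was near that of the listed endoreplication genes. Of 20 genes, 12 had a CFUMk-only site, against 40.8% of protein-coding genes, and 16 had a shared site, against 49.1%. Of the 66 sites at these genes, 35 (53.0%) were CFUMk-only, and 25 of 56 (44.6%) without Mecom, against 37.7% of all sites. In the other gene lists this share ran from 20% (granulocyte and monocyte genes) to 44.4% (endoreplication genes). In the equal lists, 3 genes had a CFUMk-only site (Mecom, Lmo2 and Angpt1; 5.87% of all protein-coding genes) and 3 an iMk-only site (Meis1, Flt3 and Cdk6; 4.48% of all). Angpt1, which encodes a ligand of the Tie2 receptor, had a weaker peak in iMk replicate 2 (5.91, against 35.2 in CFUMk). Mecom and Lmo2 had sites of this rank with no peak in either complete iMk list, as did 4.28% of protein-coding genes.

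Spi1, the master factor of myeloid and B cells, had 4 CFUMk-only sites of 11.1 to 21.5, of which 1 was called in another primary library. A further site was shared (82.3 in CFUMk, 34.9 and 31.9 in iMk). In the rank bins of the weakest and strongest of the 4, 76.7% and 32.65% of all CFUMk peaks lacked a peak in either iMk list. Myb, Hoxa9, Cd34 and Myc each had shared sites, with 36.9 in CFUMk and 28.1 and 22.02 in iMk at Myb, a factor of progenitor growth.

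Many genes of the mature megakaryocyte had CTCF sites in CFUMk cells already, as did many genes of other lineages. Of 15 receptor genes 9 had a shared site and 8 a CFUMk-only site. Of 20 granule, cytoskeleton and signalling genes the numbers were 14 and 9, of 19 regulator genes 16 and 12, and of 10 endoreplication genes 4 and 5. These shares stood beside the 49.1% and 40.8% of all protein-coding genes. No gene of these lists had an iMk-only site when all peaks were used, where 0.0866% of protein-coding genes had one. Of the sites at these genes, CFUMk-only sites were 11 of 28 at receptors (39.3%), 12 of 48 at granule and signalling genes (25%), 25 of 66 at regulators (37.9%) and 8 of 18 at endoreplication genes (44.4%). The share of all sites was 37.7%. In the equal lists a shared site lay at 8 receptor, 12 granule and signalling, 14 regulator and 4 endoreplication genes, against 45.5% of all protein-coding genes. A CFUMk-only site was left at 1 gene of these lists, Mmrn1, and an iMk-only site at Gp1ba, F13a1, Plek, Stat5b and Arhgef2.

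**Figure D5:**
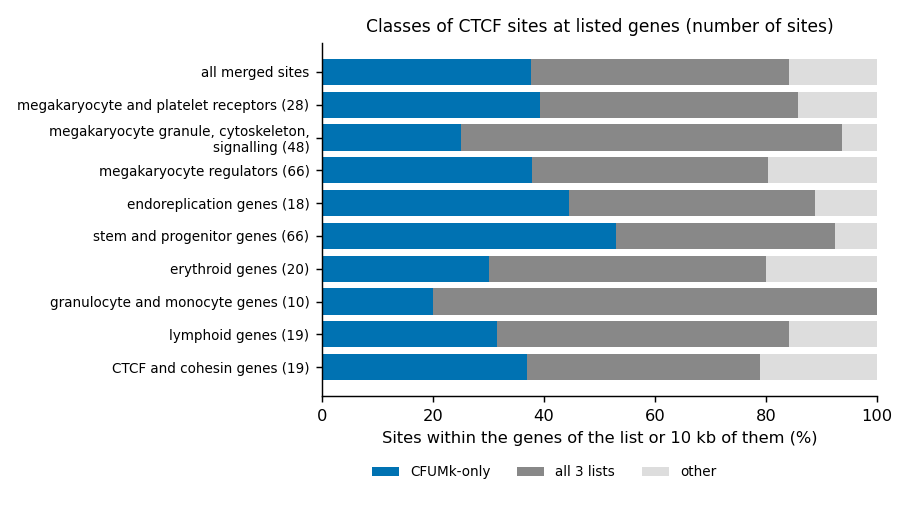
For each gene list, with its number of sites in brackets, and for all merged sites, the bar gives the percentage of sites within the genes or 10 kb of them that were CFUMk-only, shared ("all 3 lists") or of another class, from all peaks. CFUMk-only sites make up 53.0% at stem and progenitor genes and 25% at granule, cytoskeleton and signalling genes, against 37.7% of all sites.

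Among the 15 receptor genes, 1 had a site that ranked lower in iMk and 1 a site that ranked higher, by the rule given with the shared sites. Such sites lay at 4.13% and 3.73% of all protein-coding genes, so 1 receptor gene of each kind does not set the list apart. The genes were Itga2b and Itgb3, of the platelet fibrinogen receptor. The subunit genes Itga2b (CD41) and Itgb3 (CD61) encode the markers by which both populations were sorted. A shared site 22.4 kb from the Itga2b start, in the promoter of a neighbouring gene, had a −log10 p of 96.2 in CFUMk and 12.6 and 10.5 in iMk. Among the shared sites it stood at the 83.1 percentile by CFUMk strength and at the 31.2 and 22.9 percentiles by iMk strength. A shared site in an intron of Itgb3 had 57.6, 39.0 and 35.4, at the 52.0, 85.3 and 83.2 percentiles. The von Willebrand receptor genes Gp5, Gp9 and the collagen receptor gene Gp6 had weak CFUMk-only peaks of 5.12 to 15.7. Gp1ba and Gp1bb, of the same receptor as Gp9, had shared sites, with 22.02 in CFUMk and 11.1 and 14.7 in iMk near Gp1ba. Selp, the adhesion receptor that platelets expose on activation, had a strong shared site (148.3, 46.2 and 53.3). The thrombin receptor gene F2rl2 had no site.

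Among granule genes, Vwf, which encodes the adhesive protein of alpha granules, had the strongest site at any listed gene (304.2 in CFUMk, 54.6 and 54.1 in iMk). This site stood above the 95 percentile of the shared sites by each list. The promoter site of Thbs1, a granule glycoprotein, ranked lower in iMk (61.2, 12.4 and 12.2). Shared sites of the cytoskeletal genes Actn1 and Tln1 and of Fermt3, an activator of platelet integrins, ranked higher, as in Tln1 with 47.9, 23.5 and 22.2. Mmrn1, which encodes a carrier of factor V, had 1 CFUMk-only site, with 29.9 in CFUMk, 11.98 and 26.3 in LSK, 14.02 in CMP, 15.1 in GMP, 5.71 in MEP and 12.2 in ERY replicate 2. The platelet chemokine genes Pf4 and Ppbp had no site.

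Most regulators had a shared site. Klf1, an erythroid factor at the branch with megakaryocytes, and Gfi1b, a repressor needed in both lineages, each had a site called in all 11 primary libraries (Klf1 146.6 in CFUMk, 46.2 and 78.4 in iMk; Gfi1b 71.4, 22.1 and 28.6). Runx1 had a shared site (85.9, 26.1 and 46.0) and 3 CFUMk-only sites of 18.97 to 21.9. In the rank bins of those 3, 32.65% to 43.8% of all CFUMk peaks lacked a peak in either iMk list. Fli1, an Ets factor of megakaryocytes, had a shared site within the gene (28.6, 11.8 and 5.86) and 2 weak CFUMk-only sites. An exon site upstream of Lyl1, a relative of Tal1, had 62.6 in CFUMk and 6.46 and 6.68 in iMk, and unlike most sites that ranked lower it had peaks in all 3 erythroid libraries, from 8.93 to 24.2. Gata1 itself had no site. Stat5a and Stat5b, near-identical copies, each had a CFUMk-only peak of the same height (5.23), which the short reads may not place in one of them.

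The lists of other lineages served as a background. A CFUMk-only site lay at 5 of 10 erythroid, 2 of 10 granulocyte and monocyte, 3 of 10 lymphoid and 4 of 8 CTCF and cohesin genes. A shared site lay at 7, 5, 7 and 5 of them, against 49.1% of protein-coding genes. Their shares of CFUMk-only sites among all sites at the genes were 30% (6 of 20), 20% (2 of 10), 31.6% (6 of 19) and 36.8% (7 of 19).

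With all peaks few sites were iMk-only, but the CFUMk list was far longer than the iMk lists. In the equal lists iMk-only sites numbered 1061 (4.67%), against 1524 CFUMk-only sites (6.7%). The strongest iMk-only site was not particular to megakaryocytes. The Wwox promoter (chr8:114439584-114440457), of an oxidoreductase gene, had 58.2 and 45.2 in iMk. It was also called in each of the other primary libraries, with 38.6 and 34.6 in LSK, 41.7 in CMP, 38.9 in GMP, 23.8 in MEP, 20.9 in CFUE and 17.7 and 20.5 in ERY, and in 13 of 14 cell line libraries. Of the 11 primary lists only that of CFUMk lacked it. The next site, near Pde6h, had 23.01 and 14.2 in iMk and 5.93 and 7.91 in LSK. The remaining 20 of the 22 iMk-only sites had values of 5.04 to 16.95 in the iMk lists. Of the 22 sites, 6 were called in no other primary library.

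In the equal lists, a Cdk6 intron site led the progenitor genes among iMk-only sites. Cdk6 encodes the kinase that drives progenitors into the cell cycle. The site had 20.1 and 20.4 in iMk and 13.5 in CFUMk, where it ranked 24540, and was called in 1 other primary library. The others of the 10 strongest lay nearest to Heatr6, Enox1, Fsbp, Kcnq3, Slc7a8, Trim39, Pde6h and Nr1d2.

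Shared sites were then compared by their place in each list, a measure chosen after the data were seen. Percentiles were taken among the shared sites alone, ranked by each list in turn. A site counted as lower or higher in iMk where both iMk percentiles differed from the CFUMk percentile by at least 20 points. Of the 17309 shared sites, 953 (5.51%) ranked lower and 896 (5.18%) higher. The SD of the percentile difference was 18.8 points between CFUMk and iMk replicate 1, 19.01 between CFUMk and replicate 2, and 18.9 between the iMk lists, so the spread between the cell types was about that between the iMk libraries.

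Sites that ranked lower in iMk were called more often in progenitor and less often in erythroid libraries than the other shared sites, though far more often in erythroid libraries than CFUMk-only sites. They were called in 93.7% of cases in LSK replicate 1 and 84.8% in MEP, but in 29.3% in CFUE and in 24.1% and 18.3% in ERY. Sites that ranked higher were called in 82.4%, 66.3%, 38.8%, 40.6% and 31.5%, and sites that did neither in 84.1%, 72.9%, 41.6%, 40.6% and 33.9%. The gap between MEP and the erythroid libraries was widest at sites that ranked lower. By the rule, such sites could not be among the weakest shared sites of the CFUMk list, and sites that ranked higher could not be among the strongest. No match on CFUMk strength was made, so its part in these shares was not tested.

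Of the 10 sites with the largest fall in rank, 7 were promoter sites. Slc24a3, a sodium, potassium and calcium exchanger, had 103.0 in CFUMk and 5.78 and 7.28 in iMk. Disp3, a sterol-sensing domain protein, had 116.1, 5.58 and 10.1. Prdm8, a neural regulator, had 105.1, 5.21 and 10.8, and Rprm, a cell cycle inhibitor, had 85.6, 5.77 and 9.67. The Prdm8 site was called in all 5 progenitor libraries, from 5.28 in MEP to 36.4 in LSK replicate 2, and in no erythroid or cell line library. At haematopoietic genes, the Cebpa promoter, of a myeloid factor, had 186.0 in CFUMk and 26.1 and 30.5 in iMk and no peak in any erythroid library, and an intron site of Erg, an Ets factor of stem cells and megakaryocytes, had 68.8, 9.10 and 9.19. Sites with the largest rise lay at Itga8, Icosl, Asic3, Elf5, Tmem8b and Prmt3, with 41.7 in CFUMk and 40.0 and 37.5 in iMk at the Elf5 promoter.

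The strongest shared sites were common to nearly all cells. Of the 10 strongest, 9 were called in each of the 8 other primary libraries and all 10 in the 14 cell line libraries. The exception, near Fam69b, had 310 in CFUMk, 136.5 and 153.3 in iMk and 68.5 to 180.2 in the progenitors, and no peak in CFUE or ERY. The leading site, in an intron of Snx29, had 310 in CFUMk and 312.7 and 310 in iMk, close to the highest values that the peak caller wrote.

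By sequence, CFUMk-only sites had somewhat poorer CTCF motifs than shared sites. In the equal lists, 92.3% of CFUMk-only, 96.8% of shared and 93.6% of iMk-only sites held a match, against 28.6%, 35.9% and 20.7% of windows 10 kb away. The difference between CFUMk-only and shared sites was −4.52 points (95% Newcombe interval −5.99 to −3.25, over sites, which are not replicates). The median score of the best match was 16.4, 18.5 and 18.3. Among the sequences printed above, the 19 letters at Kit and Lmo2 scored 13.8 and 12.3, below each of these medians, and those at Itgb3 scored 22.6. Single sites overlapped between the classes. CFUMk-only sites scored 15.67 at Hoxd3os1, 16.29 at Lama1, 17.13 at Slco5a1 and 18.3 at Scnn1g. The shared sites at Cdk6 and Prdm8 scored 9.97 and 18.7. The score also depended on strength, and at CFUMk ranks 5001 to 10000 the median was 16.8 at CFUMk-only and 18.5 at shared sites.

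In position, iMk-only sites stood furthest from shared sites in the equal lists, which reach down to a −log10 p of 5.38 and 6.22 in iMk but 22.9 in CFUMk. Promoters made up 18.6% of CFUMk-only, 18.3% of shared and 13.9% of iMk-only sites of the equal lists. At least 50% of the site was soft-masked repeat in 5.31%, 5.31% and 15.8%, a difference of 10.5 points between iMk-only and shared sites (95% Newcombe interval 8.42 to 12.9). Chromosome X held 1.25%, 1.06% and 5.84%. A TAL1 peak of the cell line lay at 1.57%, 2.72% and 2.83%. With all peaks, which add the weak CFUMk peaks, CFUMk-only sites also exceeded shared sites in repeat (15.0% against 6.12%) and on chromosome X (2.61% against 1.54%).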

How the data were processed

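CTCF ChIP-seq peak lists of 11 primary cell libraries, and of 14 CTCF and 10 TAL1 libraries of the cell line, were used as deposited. By the methods and the submitters' processing notes, reads were aligned to mm10 with Bowtie (1.0.0 in the notes) after bcl2fastq 1.8.4, and peaks were called in each library with MACS. Each deposited peak carries a fold enrichment (a ratio of ChIP to background) and a −log10 p-value, both as the authors' peak caller wrote them, with a floor near 5 and a ceiling that the text mentions where it is met. Weak sites can therefore be lost from a shorter list with no change in binding. Read depth is unknown, and the intervals given cover counting of sites.

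Peaks were ranked by −log10 p and merged at 1 bp of overlap with Python 3.11.15, numpy 2.4.6 and scipy 1.17.1. A promoter lay within 1000 bp of a transcription start of the annotation (GENCODE vM21 on GRCm38), and a gene had a site within the gene or 10 kb of it. Of 122 listed genes in 9 lists, 122 were found. A motif match had p of 0.0001 or less under the matrix, learned on 2000 peaks and the middle 200 bp, and both strands were searched. Matching and overlap were tested on simulated data. Groups were taken from the labels. Comparisons over libraries used exact permutation tests, two-sided. Samples carried 0 unmapped columns.

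Named were the 10 strongest sites of each class and the sites at listed genes, promoters first and then the strongest. The classes, lists and members were chosen with earlier results of these data known. Alternatives covered list length, thresholds, overlap, left-out libraries, promoter and gene windows, and motif settings. Results at some of these genes are not reported here.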

Additional observations from a re-analysis of the deposited data

Results flagged for a closer look

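Of the sites called in either class, the share that was CFUMk-only differed between the progenitor and the erythroid libraries. With all peaks the difference was 1.57 percentage points, and with the 19000 strongest peaks of each list it was 33.5 percentage points. Both had an exact permutation p of 0.0357, the smallest that 5 against 3 libraries allow. Erythroid lists were the shortest of the primary lists (6629 to 11990 peaks), and with each of these lists held to 6629 peaks the first difference was 0.635 points (exact permutation p = 0.464) and the second rested on means of 85.7% and 34.4% (exact permutation p = 0.0357). No library stood far from the others of its group in the 20 groups of values examined.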

How the results depend on the processing

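No paired analysis was possible because the labels give no replicate numbers that the CFUMk and iMk libraries share. Of the results recomputed under the alternatives, 97 stayed the same, 34 moved, 19 became weaker and 6 reversed. A test stayed the same if it kept its direction and its side of 0.05, and became weaker if it no longer passed. A share stayed the same within the 95% Wilson interval of the main share, and a count within a fixed ratio of the main count. The 19000 strongest peaks left 1524 CFUMk-only and 1061 iMk-only sites (1566 and 1121 when ranked by fold enrichment), motif and promoter shares of 92.3% and 18.6% at CFUMk-only sites, and 1 megakaryocyte and 3 stem and progenitor genes with a CFUMk-only site, 4 and 3 with an iMk-only site. At a −log10 p of at least 10 there were 6 iMk-only sites, and motif and promoter shares were 91.0% and 17.5% (CFUMk-only), 97.2% and 18.6% (shared) and 100% and 33.3% (iMk-only). Without 1 iMk library, iMk-only sites numbered 96 to 702, motif shares were 86.8 to 86.9% (CFUMk-only), 95.8 to 96.2% (shared) and 42.5 to 75% (iMk-only), promoter shares 19.04 to 19.9% (CFUMk-only) and 17.4 to 18.2% (shared), and 0 to 3 megakaryocyte genes had an iMk-only site. The call difference between CFUMk-only and iMk-only sites turned direction in other primary libraries with the 19000 strongest peaks (9.48 points), with other lists of equal length too (1.86, an alternative chosen after seeing the data) and without 1 iMk library (5.21 and 9.97), and in the cell line without 1 iMk library (2.42 and 8.10). With any 1 library left out these differences ran from −11.2 to 9.97 and from −10.5 to 8.10. The cause was not tested. The progenitor to erythroid difference of 1.57 points was 1.02 to 6.27 with 1 library left out, 1.58 without the Low pass libraries, and 0.635 with equal lists of the other libraries (exact permutation p = 0.464). With the 19000 strongest peaks the difference of 33.5 points was 17.2 to 37.7 with 1 library left out and 34.5 without the Low pass libraries. With 1 or 2 of the 8 libraries left out, the design cannot reach 0.05. Motif shares were 64.7% and 86.8% (CFUMk-only and shared) at a match p of 1e-05 and 70.1% and 79.0% in the middle 200 bp. Promoter shares were 29.0% and 26.7% within 2500 bp, and 45 megakaryocyte genes had a CFUMk-only site within 50 kb.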

Other observations

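The Hox clusters were looked at after the strongest CFUMk-only site was found at Hoxd3 and Hoxd4. Their counts stand beside the 37.7% of all merged sites that were CFUMk-only. Hoxb had 10 sites, of which 8 were shared and 2 CFUMk-only. Hoxa had 6 sites, with 3 shared and 2 CFUMk-only, Hoxc 4 sites, with 2 shared and 1 CFUMk-only, and Hoxd 5 sites, with 2 shared and 3 CFUMk-only. The Hoxd3 and Hoxd4 site was the 1 CFUMk-only site of the clusters among the 19000 strongest CFUMk peaks. At Hoxa9, a homeobox gene of stem cells and progenitors, both sites were shared, with 170.6 in CFUMk and 51.6 and 53.2 in iMk at the stronger. Across all protein-coding genes, 53 had at least 2 CFUMk-only sites of rank 19000 or better and 8 had at least 3.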
